A study of Bos taurus with 12 samples.

Results

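A set of 40 marker genes of the oviduct wall, 18 of fibroblasts and their matrix, 10 of smooth muscle and 12 of endothelium, was followed in preparations of bovine oviductal epithelial cells, as a measure of the non-epithelial cells that each preparation held. The members were chosen by gene symbol, and 39 of the 40 were read among 18010 genes with a probeset of a single symbol, each on its probeset with the highest mean. The exception was ACTA2, alpha smooth muscle actin, whose probeset is shared with ACTG2 and is described apart. RNA came from 6 normally cycling Angus heifers. Those of the follicular phase (FP, n = 3) were given prostaglandin F2α (25 mg) at day 6 of their cycle, 36 h before they were killed, and those of the luteal phase (LP, n = 3), which received none, were killed on day 11 or 12. The oviduct on the side of the preovulatory follicle or of the corpus luteum gave 1 preparation of the ampulla and 1 of the isthmus, pressed out of the tube with forceps, and 1 Bovine Gene 1.0 ST array was run per preparation, so that the FP ampulla, LP ampulla, FP isthmus and LP isthmus groups had 3 arrays each. The FP was induced, so cycle day and prostaglandin treatment cannot be told apart from phase.

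The oviduct is a folded epithelium on a lamina propria of fibroblasts and blood vessels, within a coat of smooth muscle that is thin at the ampulla and thick at the isthmus. Fibroblasts make collagens, fibrillin, fibulins and the small proteoglycans decorin and lumican, which bind collagen fibrils. Smooth muscle cells carry their own myosin heavy chain and actin-binding proteins, and endothelial cells carry adhesion proteins and the angiopoietin receptor TEK. A gently pressed epithelium can carry some of these cells along, and several of the genes are not exclusive to one cell type, so a marker signal is not a cell count. In RNA of a whole preparation, fewer cells of a type and less RNA per cell cannot be told apart.

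Signals are log2 values on which the arrays were quantile normalized, so a difference of 1 is a 2-fold difference, and signals of different genes are not compared. Epithelial RNA was present on every array, which does not show that a preparation was free of other cells. EPCAM, an epithelial adhesion protein, had a signal of 11.64 to 12.31, above the upper quartile of the arrays (9.18 to 9.26), and the same was true of CDH1, epithelial cadherin, at 11.09 to 12.08. Not all of the 24 epithelial markers were above that quartile, with ELF3 at 6.33 to 7.38 and GRHL1 at 5.98 to 8.52. Replicate arrays of a group correlated at 0.984 to 0.990 over all probesets. The lower quartile of the arrays was 5.68 to 5.82. The files give no detection calls, and the size of a difference is uncertain for group means at or under that quartile, as all 4 were for TIE1 and ACTG2, 2 were for TAGLN and 1 was for PDGFRB.

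Arrays stood apart within the isthmus groups. The array of heifer 1 was the highest of the 3 FP isthmus arrays for 29 of 39 members, and that of heifer 1 was the highest of the 3 LP isthmus arrays for 27 of 39. These are different heifers, since animal numbers start again in each phase. The array of heifer 1 was highest for 15 of 18 fibroblast and matrix members in the FP isthmus and 13 of 18 in the LP isthmus. For endothelial members the counts were 9 of 12 and 8 of 12. No ampulla array was highest of its group for more than 10 of 18 or 6 of 12 of these. The smooth muscle counts, 5 of 9 and 6 of 9, did not set the isthmus arrays of heifer 1 apart. The FP ampulla array of heifer 1 also reached 6 of 9, and the LP ampulla array of heifer 3 reached 5 of 9. The mean of 24 epithelial markers was also the highest of its group on both isthmus arrays of heifer 1 (10.35 and 10.29), and that of 26 leukocyte markers was not. The share over all probesets was not counted. The heat map of all members shows the same columns.

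**Figure D1:**
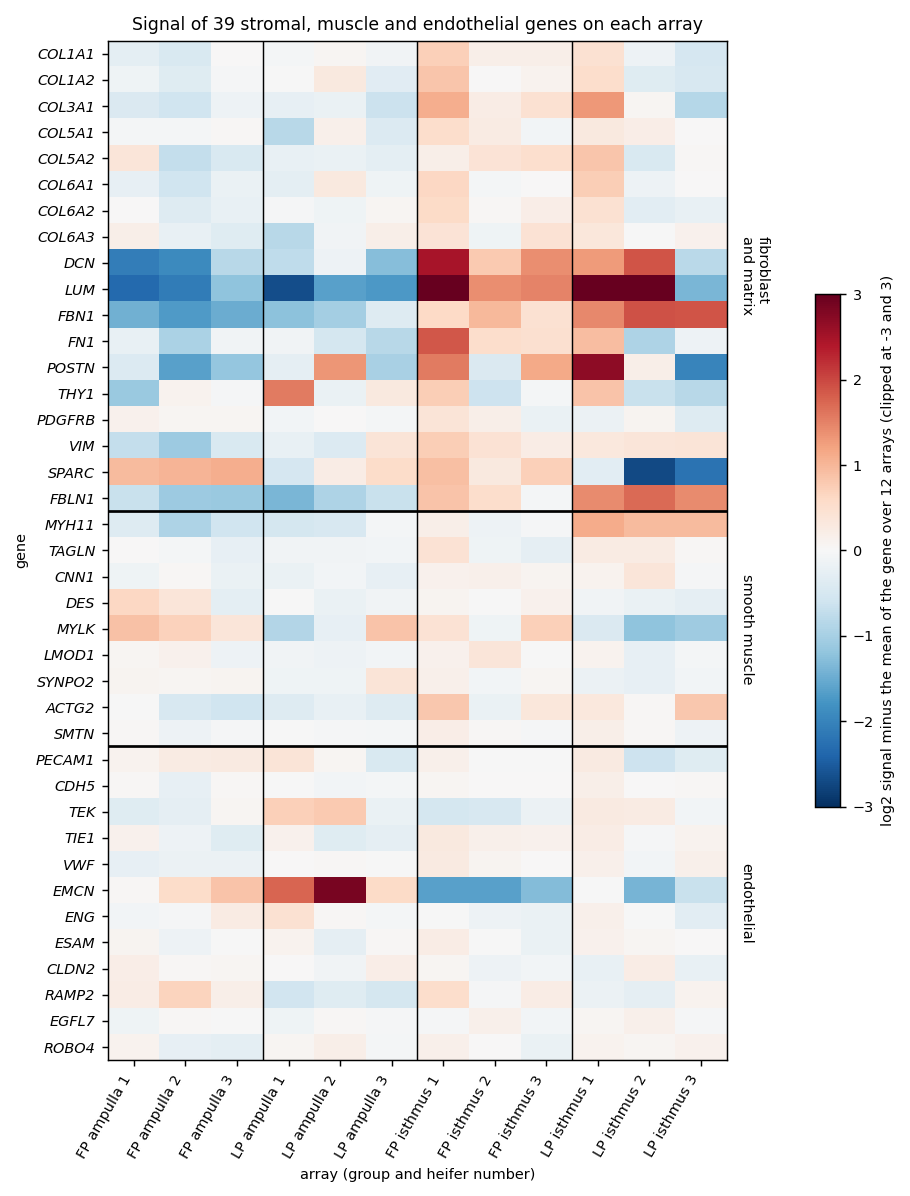
Log2 signal of each of the 39 measured genes (rows, in their 3 lists) on each of the 12 arrays (columns, by group and heifer number), as the difference from the mean of that gene over the 12 arrays. FBN1 is red (above its mean) in all 6 isthmus columns, LUM and DCN are red in all of them but LP isthmus 3, FBLN1 in all but FP isthmus 3, and EMCN is blue in all but LP isthmus 1, where it is at its mean. The columns of FP isthmus 1 and LP isthmus 1 are the reddest of their groups.

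In the fit, 9 of the 18 fibroblast and matrix members had larger spread within groups than 90 of every 100 probesets, with a median residual SD of 0.37 against 0.17 over all probesets. The SD was 1.54 for LUM, 1.44 for POSTN (periostin) and 0.93 for DCN. The median was 0.21 for the smooth muscle members and 0.18 for the endothelial members. The same 3 heifers per group thus gave unequal precision, and even large differences of the most variable genes could fail to pass the test.

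The first comparison was of the isthmus with the ampulla. In the LP, 6 of 39 members were called (an adjusted p under 0.05 and a change of at least 1.5-fold), against 6.99% of all probesets. LUM, FBN1, FBLN1 and MYH11 rose, against 3.92% of all probesets, and SPARC and EMCN fell, against 3.07%. In the FP, 4 of 39 were called against 2.35% of all probesets. All 4 (DCN, FBN1, VIM and FBLN1) rose, against 1.52%, and 0 fell, against 0.829%. The groups did not overlap for 10 of 39 members in the LP, against 29.5% of all probesets (9 higher and 1 lower), and for 16 in the FP, against 25% (14 higher and 2 lower). FBN1 and FBLN1 were called in both phases. With the FP isthmus array of heifer 1 left out, 1 of the 4 calls in the FP, that of FBN1, was made.

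FBN1, fibrillin-1, the main protein of matrix microfibrils, had ampulla signals of 7.23, 6.98 and 7.19 (FP) and 7.45, 7.67 and 8.29 (LP) and isthmus signals of 9.27, 9.65 and 9.15 (FP) and 10.12, 10.59 and 10.56 (LP), for heifers 1, 2 and 3 in order. Every isthmus array lay above every ampulla array. The isthmus exceeded the ampulla by 2.62 on the log2 scale in the LP (SE 0.22, 6.15-fold, adjusted p = 6.11e-05) and by 2.22 in the FP (SE 0.22, 4.66-fold, adjusted p = 0.000627). Both calls were made without each of the 6 heifers in turn.

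FBLN1, fibulin-1, a glycoprotein of matrix and basement membranes, followed with 8.76, 8.34 and 8.31 (FP) and 8.07, 8.51 and 8.78 (LP) in ampulla preparations and 10.29, 9.97 and 9.38 (FP) and 10.85, 11.14 and 10.85 (LP) in isthmus preparations. Again the segments did not overlap. The difference was 2.50 in the LP (SE 0.24, 5.65-fold, adjusted p = 0.000152) and 1.41 in the FP (SE 0.24, 2.66-fold, adjusted p = 0.0126). The call in the FP was lost without heifer 2 of the FP, with an adjusted p of 0.181.

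The proteoglycan lumican (LUM) showed the greatest difference of any member between the segments. Ampulla arrays read 6.15, 6.39 and 7.29 (FP) and 5.82, 6.87 and 6.76 (LP), whereas isthmus arrays read 11.94, 9.89 and 9.98 (FP) and 11.86, 11.82 and 7.12 (LP). The ampulla arrays lay within 1.5 log2 units of each other. The isthmus arrays did not, and the LP isthmus array of heifer 3 was below the highest ampulla array, although above the ampulla of the same phase. The difference was 3.78 in the LP (SE 1.09, 13.8-fold, adjusted p = 0.0471) and 3.99 in the FP (SE 1.09, 15.9-fold, adjusted p = 0.083, not called). The LP call was lost in 5 of the 6 fits that left out a heifer, all but that without heifer 3 of the LP, with adjusted p up to 0.297, and with heifer as a fixed block (adjusted p = 0.0786). Without the LP isthmus array of heifer 3, the FP difference passed with an adjusted p of 0.00528.

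Decorin (DCN), its close relative, read 6.88, 7.05 and 8.12 (FP) and 8.20, 8.80 and 7.67 (LP) on ampulla arrays and 11.42, 9.75 and 10.35 (FP) and 10.22, 10.85 and 8.16 (LP) on isthmus arrays. The segments were apart in the FP and overlapped in the LP, where the isthmus of heifer 3 lay below 2 of the ampulla arrays. The difference was 3.16 in the FP (SE 0.66, 8.94-fold, adjusted p = 0.0304) and 1.52 in the LP (SE 0.66, adjusted p = 0.182). The call in the FP was lost without any of the 3 FP heifers or heifer 1 of the LP, with adjusted p up to 0.211. The LP difference was 2.31 without the LP isthmus array of heifer 3 and then passed (adjusted p = 0.0254).

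VIM, vimentin, the intermediate filament protein of mesenchymal cells, gave ampulla signals of 7.47, 7.10 and 7.73 (FP) and 7.96, 7.78 and 8.56 (LP) and isthmus signals of 8.92, 8.63 and 8.41 (FP) and 8.51, 8.56 and 8.57 (LP). The FP segments were apart and the LP segments met at the ampulla of heifer 3. The difference of 1.22 in the FP (SE 0.21, 2.33-fold, adjusted p = 0.0141) was lost without heifer 1 or heifer 2 of the FP (adjusted p up to 0.169). The LP difference was 0.45 (SE 0.21, adjusted p = 0.224).

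**Figure D2:**
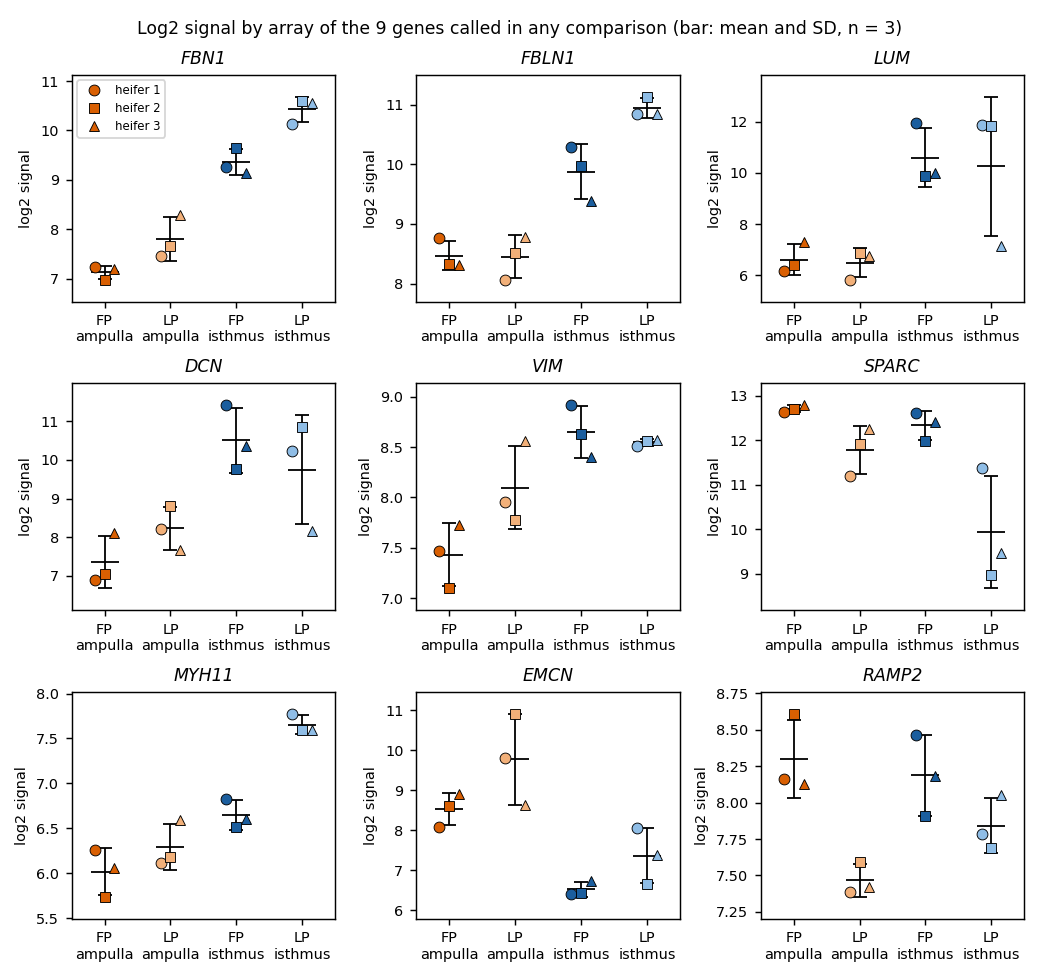
Log2 signal (y axis, a range of its own for each gene) of the 9 genes called in any comparison, by group (x axis). Symbols are heifers, and bars are the mean and SD of 3 arrays. FBN1 and FBLN1 separate the isthmus from the ampulla in both phases, and LUM, DCN and SPARC spread widely within the LP isthmus.

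The 8 collagen members, which code for chains of the fibrillar collagens I, III and V and of collagen VI, were called in none of the comparisons. In the FP all 8 had higher means in the isthmus, by 0.25 (COL5A1) to 0.98 (COL3A1), with a median of 0.51 against 0.00 over all probesets. In the LP 6 of 8 were higher, with a median of 0.31. Per heifer, the mean of the 8 was higher in the isthmus by 0.70, 0.54 and 0.40 in the FP and by 0.94 in heifer 1 of the LP, and lower by 0.17 and 0.02 in heifers 2 and 3. COL3A1 illustrates the spread, with isthmus signals of 8.00, 7.11 and 7.35 (FP) and 8.20, 6.95 and 6.05 (LP) against 6.27 to 6.76 over the 6 ampulla arrays. The mean difference of COL3A1 was 0.98 in the FP (SE 0.44, adjusted p = 0.27) and 0.52 in the LP (SE 0.44, adjusted p = 0.526).

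The rest of the fibroblast list, FN1 (fibronectin), POSTN, THY1 and PDGFRB, was called in no comparison. FN1 differed between segments by 1.39 in the FP (SE 0.48, adjusted p = 0.163), and its 3 isthmus arrays (9.97, 8.63 and 8.60) lay above those of the ampulla (7.89, 7.15 and 8.00). POSTN ranged from 4.96 to 9.63 within the LP isthmus. THY1, a surface protein of fibroblasts and of other cells, was lower in the LP isthmus by 0.76 (SE 0.57, adjusted p = 0.471), with its highest signal, 8.68, in the ampulla of heifer 1. PDGFRB, the receptor of fibroblasts and pericytes for platelet-derived growth factor B, differed by 0.28 or less in each contrast.

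SPARC, a secreted protein that binds collagen, was the 1 of 18 fibroblast and matrix members called lower in the isthmus. In the LP, 5 of the 18 had lower means there. Ampulla preparations read 12.64, 12.70 and 12.79 (FP) and 11.19, 11.91 and 12.25 (LP), and isthmus preparations read 12.60, 11.98 and 12.41 (FP) and 11.37, 8.98 and 9.47 (LP). The arrays of heifers 2 and 3 of the LP isthmus were below all 10 others, and that of heifer 1 lay within the LP ampulla range. In the LP the isthmus was lower by 1.84 (SE 0.50, 3.59-fold, adjusted p = 0.038). That call was lost with heifer as a fixed block (adjusted p = 0.0971) and without each heifer but heifer 1 of the LP (adjusted p up to 0.263). In the FP the difference was -0.38 (SE 0.50, adjusted p = 0.764).

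The low signals of SPARC in heifers 2 and 3 of the LP isthmus were shared with genes of other lists, picked out after their values were seen. CALD1, caldesmon, an actin-binding protein of smooth muscle and other cells, was at 7.56 and 7.53 there against 9.59 to 10.44 on the other arrays. COL14A1, a collagen that binds to fibrils, was at 7.84 and 8.92 against 11.00 to 11.47. WT1 (6.95 and 7.45), MSLN (9.39 and 9.65) and UPK3B (7.16 and 7.21), known from mesothelium and the first 2 also from oviduct epithelium, were likewise at their lowest on these arrays. For LRRN4 (6.99 and 6.37), BNC1 (5.93 and 5.61) and CALB2 (4.44 and 3.80) of the same list, these arrays were not both the lowest. Of the 12 measured mesothelial and nerve markers, 6 had higher and 6 lower means in the LP isthmus than in the LP ampulla. Of these markers, 4 were called lower, against 3.07% of all probesets, and 8 were not called. Their summed signal spanned 12.37 to 13.19 in the LP isthmus, 13.22 to 13.83 in the LP ampulla and 13.44 to 13.82 in the FP groups on the log2 scale, and their part in the SPARC difference was not tested. Over all probesets, 4.57% had both of these arrays below the other 10, against 3 of 39 members, namely SPARC, MYLK and COL1A2. MYLK, of the smooth muscle list, was at 6.12 and 6.26 there against 6.44 or more elsewhere. COL1A2 was at 7.27 and 7.15 against 7.28 or more.

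Among smooth muscle members, MYH11, the smooth muscle myosin heavy chain, was the 1 member called between segments. It read 6.26, 5.74 and 6.06 (FP) and 6.12, 6.18 and 6.59 (LP) in ampulla samples and 6.83, 6.51 and 6.61 (FP) and 7.78, 7.59 and 7.59 (LP) in isthmus samples. The 3 LP isthmus arrays were the highest of the 12. The isthmus exceeded the ampulla by 1.36 in the LP (SE 0.16, 2.56-fold, adjusted p = 0.000495), a call made without each heifer in turn. In the FP the difference was 0.63 (SE 0.16, 1.55-fold, adjusted p = 0.0634). That difference was called with heifer as a random block (adjusted p = 0.045) but not as a fixed block.

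The other 8 measured genes of muscle were not called between segments. DES (desmin), CNN1 (calponin), TAGLN (transgelin), LMOD1 (leiomodin), SYNPO2 and SMTN differed by 0.31 or less in either phase. CNN1 and ACTG2 were higher in the isthmus in 6 of 6 heifers, and DES and SYNPO2 in 1 of 6. The LP segments did not overlap for TAGLN, CNN1 and ACTG2, all higher in the isthmus. With MYH11 these made 4 of 9 muscle members, against 29.5% of all probesets. SMTN, smoothelin, a protein of contractile smooth muscle, read 7.12, 6.93 and 7.05 (FP) and 7.07, 7.03 and 7.01 (LP) for the ampulla and 7.27, 7.12 and 7.03 (FP) and 7.26, 7.11 and 6.92 (LP) for the isthmus. These groups overlapped in every comparison. ACTG2 was higher in the isthmus by 0.72 in the LP (SE 0.26, adjusted p = 0.107) at signals under the lower quartile, and MYLK, the kinase that starts contraction, differed by -0.81 there (SE 0.39, 1.76-fold lower, adjusted p = 0.232). With each array centred on epithelial markers, MYLK was called in that comparison (-1.07, adjusted p = 0.0465). The median difference of the 9 was 0.06 in the LP and 0.11 in the FP.

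The probeset shared by ACTA2 and ACTG2, which was not counted, gave 9.42, 10.39 and 9.98 (FP) and 8.78, 8.87 and 8.45 (LP) for the ampulla and 10.37, 10.14 and 10.12 (FP) and 9.28, 9.14 and 9.14 (LP) for the isthmus. The phases did not overlap in either segment, and the segments did not overlap in the LP but did in the FP. The FP exceeded the LP by 1.23 in the ampulla (SE 0.21, 2.34-fold, adjusted p = 0.00325) and by 1.03 in the isthmus (SE 0.21, 2.04-fold, adjusted p = 0.00752). Between segments it differed by 0.48 in the LP (SE 0.21, adjusted p = 0.175) and 0.28 in the FP (SE 0.21, adjusted p = 0.534). The separate probeset of ACTG2 differed between phases by -0.02 in the ampulla and -0.07 in the isthmus (SE 0.26 each). Between segments it differed by 0.72 in the LP and 0.67 in the FP, none called. Its signals were under the lower quartile, so these sizes are uncertain. Which actin gave the shared signal is not known from the shared probeset and was not tested.

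EMCN, endomucin, a sialomucin of the endothelial surface, was the 1 endothelial member called between segments and was lower in the isthmus. Its ampulla arrays read 8.08, 8.61 and 8.89 (FP) and 9.79, 10.90 and 8.62 (LP) and its isthmus arrays 6.40, 6.42 and 6.73 (FP) and 8.04, 6.65 and 7.38 (LP). The isthmus lay below the ampulla in 6 of 6 heifers, without overlap. The difference was -2.41 in the LP (SE 0.50, 5.32-fold lower, adjusted p = 0.0113), lost without heifer 2 of the LP (adjusted p = 0.0748). In the FP it was -2.01 (SE 0.50, 4.02-fold lower, adjusted p = 0.0626). That difference passed with heifer as a random block (adjusted p = 0.0493) but not as a fixed block.

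No other endothelial member was called between segments. TEK, ENG and CLDN2 were higher in the isthmus in 1 of 6 heifers, as DES and SYNPO2 were, and PECAM1 in 2 of 6. TIE1 was higher there in 6 of 6, CDH5, VWF, RAMP2, EGFL7 and ROBO4 in 5 of 6, and ESAM in 4 of 6. PECAM1 and CDH5, the adhesion proteins of endothelial junctions, differed by 0.24 or less between segments, as did ESAM, ENG (endoglin), EGFL7 and ROBO4. TEK differed by -0.29 in the LP and -0.20 in the FP, VWF (von Willebrand factor) by 0.07 and 0.32, and TIE1, under the lower quartile, by 0.27 and 0.33, none called. RAMP2 differed by 0.38 and -0.12, also not called. The median over the 12 was 0.05 in the LP and -0.04 in the FP. CLDN2, a claudin of leaky epithelia that is not a usual endothelial marker, read 6.12, 5.95 and 5.99 (FP) and 5.94, 5.81 and 6.12 (LP) in ampulla cells and 5.97, 5.76 and 5.85 (FP) and 5.71, 6.15 and 5.70 (LP) in isthmus cells. These values overlapped in every comparison.

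**Figure D3:**
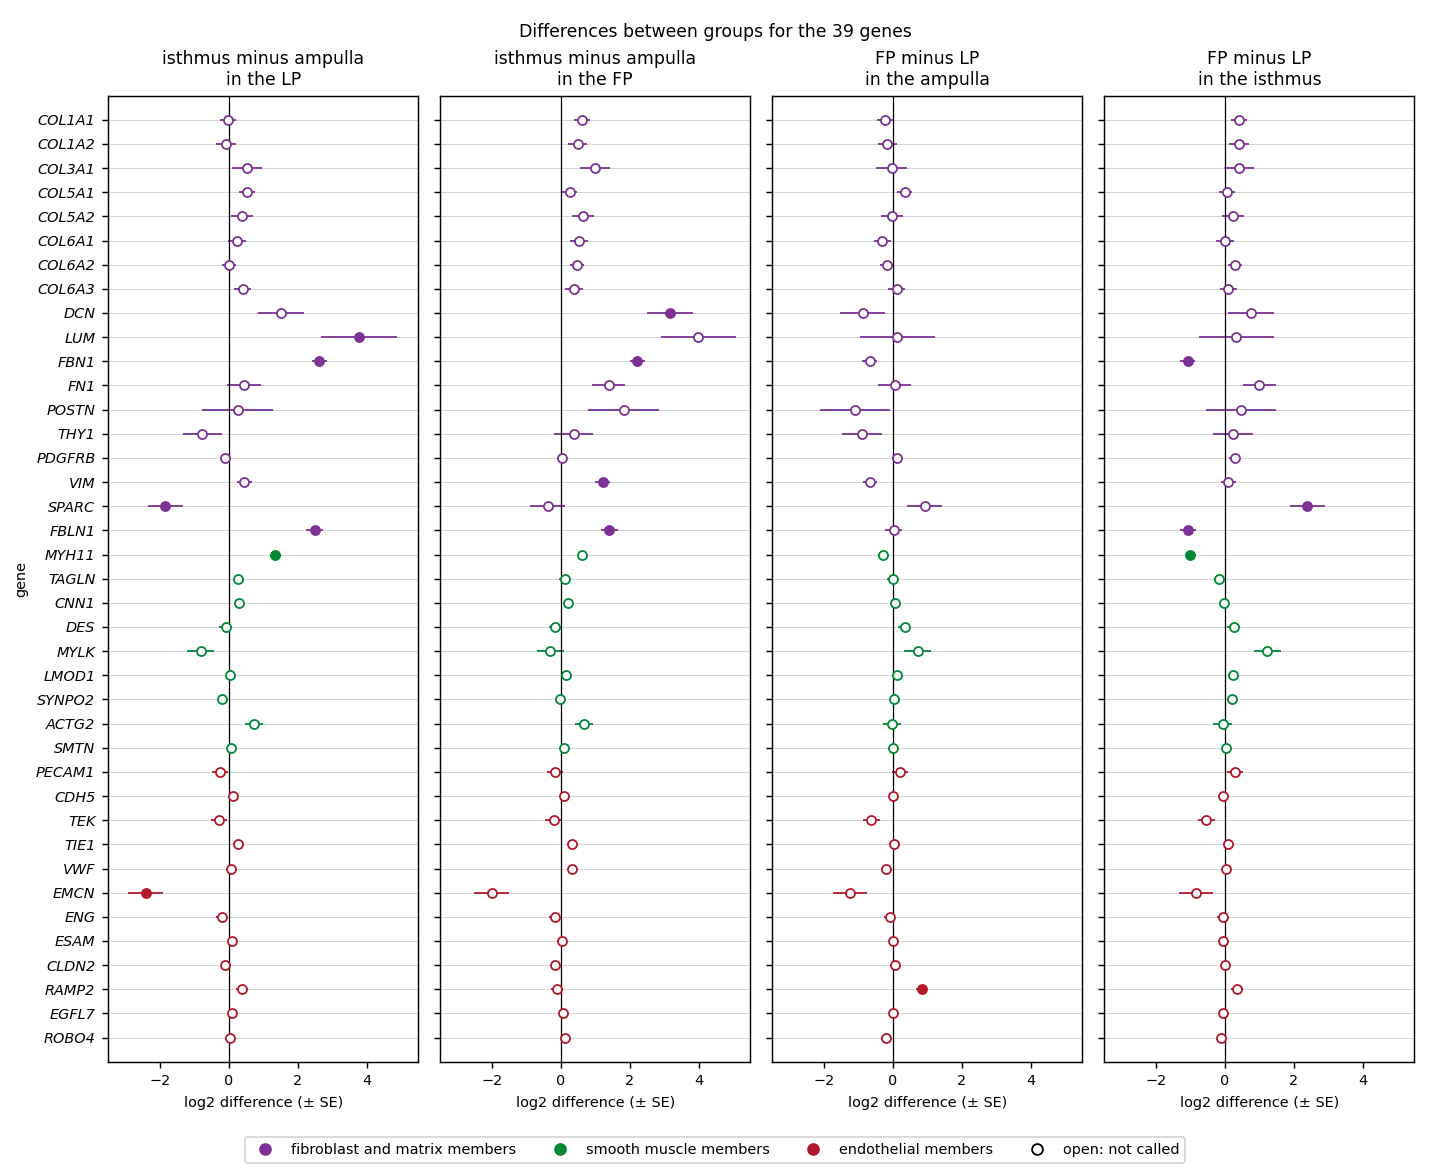
Log2 difference with its SE (x axis) for each of the 39 genes (y axis) in the 2 comparisons of segments and the 2 of phases. Filled points are called (adjusted p under 0.05 and at least 1.5-fold), open points are not, and colours are the 3 lists. Between segments, the points of LUM, FBN1 and FBLN1 lie farthest right in the LP, and those of LUM, DCN and FBN1 in the FP.

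The second comparison was of the phases. In epithelial cells of the ampulla, 1 of 39 members was called in FP versus LP heifers, against 7.82% of all probesets. It was among those higher in the FP, where the background was 4.44%, and 0 were lower, against 3.38%. The phases did not overlap for 6 of 39, against 35.5% of all probesets. RAMP2, which with its partner receptor forms the receptor for adrenomedullin, read 8.17, 8.61 and 8.13 on FP arrays and 7.39, 7.59 and 7.42 on LP arrays. The phases did not overlap, and the FP exceeded the LP by 0.84 (SE 0.17, 1.79-fold, adjusted p = 0.00799), a call made without each heifer in turn. On isthmus arrays RAMP2 read 8.47, 7.91 and 8.18 (FP) and 7.78, 7.69 and 8.05 (LP), which overlapped (0.34, SE 0.17, adjusted p = 0.204). The difference between those phase effects did not pass (-0.49, SE 0.24, adjusted p = 0.554).

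FBN1 and VIM were lower in the FP ampulla without passing, by 0.67 each (adjusted p = 0.0606 for FBN1 and 0.0581 for VIM), and neither overlapped between the phases. EMCN differed by -1.24 (SE 0.50, adjusted p = 0.125) and TEK by -0.63 (SE 0.24, adjusted p = 0.107). Without heifer 3 of the LP both passed, with differences of -1.82 (adjusted p = 0.0301) and -0.95 (adjusted p = 0.00543). The median over all members was 0.00, and 19 of 39 were higher in the FP. Of the collagens 2 of 8 were higher.

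In epithelial cells of the isthmus, 4 of 39 members were called between the phases, against 8.44% of all probesets. SPARC rose in the FP, against 4.4% of all probesets, and FBN1, FBLN1 and MYH11 fell, against 4.04%. For 7 of 39 the phases did not overlap, against 34.2%. SPARC was higher in the FP by 2.39 (SE 0.50, 5.24-fold, adjusted p = 0.00929), with all 3 FP arrays above the 3 LP arrays given before. FBN1 was lower by 1.07 (2.10-fold, SE 0.22, adjusted p = 0.00769) and MYH11 by 1.01 (2.01-fold, SE 0.16, adjusted p = 0.00221), also without overlap. These calls of SPARC, FBN1 and MYH11 were made without each of the 6 heifers in turn.

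FBLN1 in the isthmus was lower in the FP by 1.07 (2.10-fold, SE 0.24, adjusted p = 0.013), and that call was lost without heifer 3 of the FP or heifer 2 of the LP (adjusted p up to 0.0687). MYLK read 7.75, 7.19 and 8.03 (FP) and 6.88, 6.12 and 6.26 (LP) on isthmus arrays, without overlap, and just missed the threshold (1.24, SE 0.39, adjusted p = 0.0546). On ampulla arrays it read 8.20, 8.00 and 7.67 (FP) and 6.44, 7.08 and 8.18 (LP), where heifer 3 of the LP reached the FP range (0.73, SE 0.39, adjusted p = 0.255). The fibroblast and matrix members had a median of 0.29 in the isthmus, with 15 of 18 higher in the FP and 1 of those called, whereas 2 of the 3 that were lower were called.

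No member was called between phases in both segments. A difference between the phase effects of the segments was called for 0 of 39 members, against 0.153% of all probesets (limma). Of all probesets, 0.0149% were positive and 0.138% negative. VIM, FBLN1 and MYH11 were the 3 of 39 with an unadjusted p under 0.05. The same 3 passed by the F-test with LSD contrasts, in which the contrast itself is not adjusted. The share of all probesets that passed in that way is not given. The largest difference between phase effects was that of DCN (1.64, SE 0.94, adjusted p = 0.633). That of SPARC was 1.47 (SE 0.71, adjusted p = 0.554) and passed without heifer 1 of the LP, at 2.48 (adjusted p = 0.0153), or without its isthmus array alone, at 2.18 (adjusted p = 0.0413).

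As a description of each preparation, the mean signal of the 18 fibroblast and matrix members was 7.34 ± 0.17 (FP) and 7.53 ± 0.14 (LP) for the ampulla and 8.43 ± 0.40 (FP) and 8.13 ± 0.63 (LP) for the isthmus (SD, n = 3). Per heifer it was higher in the isthmus by 1.5, 0.98 and 0.78 in the FP and by 1.38, 0.39 and 0.03 in the LP. Thus heifer 1 of each phase had the widest gap, and heifer 3 of the LP had almost none. The FP isthmus was the highest of the 4 groups for 13 of the 18. The means for smooth muscle were 6.41 ± 0.16, 6.30 ± 0.15, 6.56 ± 0.15 and 6.49 ± 0.10 in the same order, and those for endothelium were 6.73 ± 0.03, 6.83 ± 0.18, 6.57 ± 0.07 and 6.65 ± 0.13. The endothelial mean was lower in the isthmus in 6 of 6 heifers, by 0.02 to 0.37. This rested on EMCN. Without it, a choice made after its values were seen, the mean of the other 11 was lower in 3 of 6 heifers, and the differences ran from -0.05 to 0.10.

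**Figure D4:**
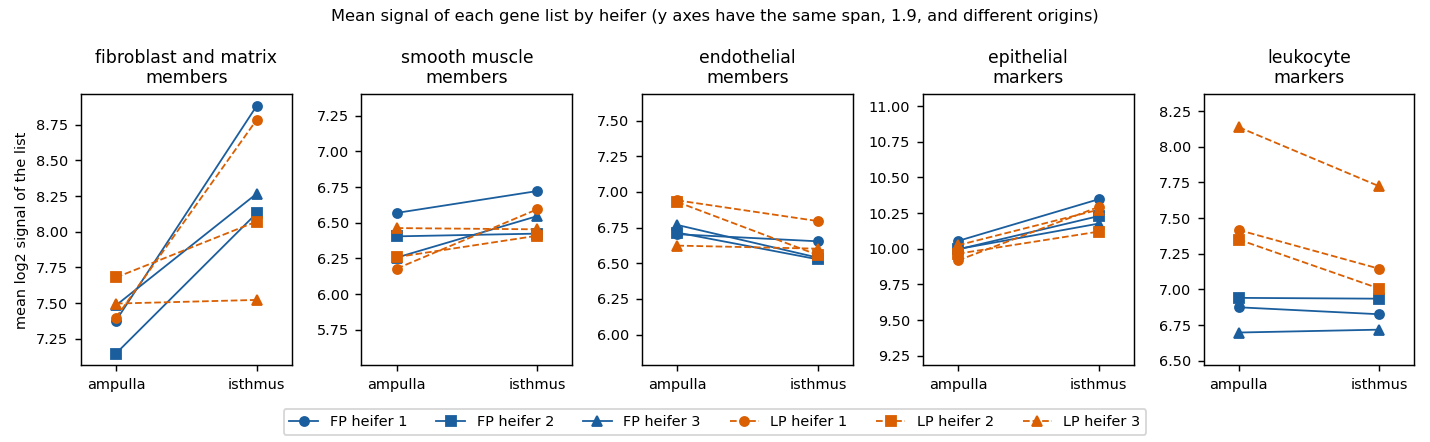
Mean log2 signal of the 3 member lists, of 24 epithelial markers and of 26 leukocyte markers (y axes of equal span) in the ampulla and isthmus of each heifer (joined points; solid lines are FP, broken lines LP). The fibroblast lines climb to the isthmus by 0.03 to 1.5, the epithelial lines by 0.15 to 0.38, and the leukocyte lines of the LP lie above those of the FP.

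Markers of the other cells moved too. The mean of 24 epithelial markers was higher in the isthmus in 6 of 6 heifers, at 10.25 ± 0.09 and 10.23 ± 0.10 in the FP and LP isthmus against 10.02 ± 0.03 and 9.97 ± 0.05 in the ampulla. The markers did not all move alike, with 16 of the 24 higher in the isthmus and 8 lower in each phase. In the LP 6 were called higher and 1 lower, or 29.2% against 6.99% of all probesets. In the FP 3 were called higher and 0 lower, or 12.5% against 2.35%. CLDN4, a claudin, showed the largest difference (1.99 in the LP, SE 0.18, adjusted p = 0.000115), followed in the LP by GRHL1 (1.79, SE 0.26, adjusted p = 0.00159). How centring depends on the markers chosen was not tested. When each array was centred on these markers, all segment differences dropped by 0.26 in the LP and 0.23 in the FP. The median of the fibroblast and matrix members fell in the LP from 0.39, with 13 of 18 higher in the isthmus, to 0.13, with 10 of 18 higher, and in the FP from 0.62 to 0.39, with 16 of 18 higher. The collagens were then higher in the isthmus for 8 of 8 in the FP and 4 of 8 in the LP. The smooth muscle median turned from positive to negative under that centring, to -0.20 in the LP and -0.12 in the FP, and the endothelial median turned in the LP, to -0.21, and went from -0.04 to -0.28 in the FP. Members called in the FP isthmus versus ampulla numbered 5 higher and 1 lower under it.

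Leukocyte markers had an ampulla mean of 7.63 ± 0.44 in the LP against 6.84 ± 0.13 in the FP, and an isthmus mean of 7.29 ± 0.38 against 6.83 ± 0.11. Of the 26 measured, 9 were lower in the FP ampulla, against 3.38% of all probesets, and 0 higher, against 4.44%, with PTPRC, the pan-leukocyte phosphatase CD45, lower by 1.75 (SE 0.44, adjusted p = 0.0225). In the isthmus 1 was lower, against 4.04% of all probesets, namely CSF1R (by 0.79, SE 0.21, adjusted p = 0.0241). Their summed log2 signal spanned 12.59 to 13.65 (LP) and 11.83 to 12.07 (FP) for the ampulla and 12.18 to 13.11 (LP) and 12.04 to 12.23 (FP) for the isthmus. VIM is also made by leukocytes, and the part of these cells in its signals was not tested. Of 6 erythrocyte markers none was called in the 4 comparisons of groups (limma), with 0, 0, 1 and 2 at an unadjusted p under 0.05 between segments in the LP and FP and between phases in the ampulla and isthmus.

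A wider list of 41 further matrix and fibroblast genes showed calls in both directions. In the isthmus versus the ampulla, 7 rose and 7 fell in the LP, against 3.92% and 3.07% of all probesets, and 6 rose and 1 fell in the FP, against 1.52% and 0.829%. Thrombospondin-1 (THBS1), a matricellular protein, was higher by 3.31 in the LP (SE 0.35, adjusted p = 0.000246) and by 2.75 in the FP (SE 0.35, adjusted p = 0.00242), with isthmus signals of 9.21 to 11.61 and ampulla signals of 6.91 to 7.70. FBLN5, an elastic fibre protein, rose by 2.96 in the FP (SE 0.58, adjusted p = 0.0224), and SFRP2, a secreted WNT modulator, by 2.16 (SE 0.36, adjusted p = 0.0103). The microfibril protein MFAP5 fell by 3.11 in the LP (SE 0.48, adjusted p = 0.00234) and NID1, nidogen of basement membranes, by 2.56 (SE 0.22, adjusted p = 9.05e-05).

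Between phases, 3 of these 41 rose in the FP and 3 fell in the ampulla, against 4.44% and 3.38% of all probesets, and 7 rose and 1 fell in the isthmus, against 4.4% and 4.04%. FMOD, fibromodulin, a collagen-binding proteoglycan, rose in both segments, by 1.64 in the ampulla (SE 0.46, adjusted p = 0.0359) and 1.97 in the isthmus (SE 0.46, adjusted p = 0.0155). LOX, the lysyl oxidase that crosslinks collagen and elastin, rose by 1.78 in the FP ampulla (SE 0.38, adjusted p = 0.00982), where TIMP3, an inhibitor of matrix proteases, fell by 0.88 (SE 0.26, adjusted p = 0.0392). In the isthmus MFAP5 rose by 1.91 (SE 0.48, adjusted p = 0.0214) and COL15A1, a basement membrane collagen, by 1.36 (SE 0.23, adjusted p = 0.00309).

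Of 35 measured further muscle and pericyte genes, 3 fell and 0 rose in the LP isthmus versus ampulla, or 8.57%, near the 6.99% of all probesets. In the FP 0 were called (limma, 6 had an unadjusted p under 0.05), against 2.35%. Tropomyosin TPM1 fell by 1.52 (SE 0.15, adjusted p = 0.000183), the small heat shock protein CRYAB by 1.31 (SE 0.13, adjusted p = 0.000203) and PGM5 by 0.62 (SE 0.12, adjusted p = 0.00883), the direction opposite to that of MYH11. Between phases 2 rose and 1 fell in the ampulla, or 8.57% against 7.82% of all probesets, and 2 rose in the isthmus, or 5.71% against 8.44%. SRF, the transcription factor of many muscle genes, rose in the FP ampulla by 0.76 (SE 0.08, adjusted p = 0.000168), MCAM by 0.59 (SE 0.14, adjusted p = 0.0146), and TPM1 fell by 1.10 (SE 0.15, adjusted p = 0.00109). In the isthmus CALD1 rose by 1.88 (SE 0.57, adjusted p = 0.0463) and CRYAB by 1.20 (SE 0.13, adjusted p = 0.000382). The LP isthmus arrays of CALD1 read 10.18, 7.56 and 7.53, against 10.44, 10.26 and 10.22 in the FP isthmus. The phase effect of CRYAB differed between the segments (limma, 1.39, SE 0.19, adjusted p = 0.0264). It was the 1 of 35 so called, against 0.153% of all probesets.

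Of 38 measured further endothelial genes, 3 rose and 4 fell in the LP isthmus versus ampulla, or 18.4% against 6.99% of all probesets. In the FP 0 were called (limma, 10 had an unadjusted p under 0.05), against 2.35% of all probesets. KDR, the main receptor for vascular endothelial growth factor, fell by 2.38 (SE 0.59, adjusted p = 0.0244), ADGRL4 by 2.11 (SE 0.46, adjusted p = 0.0144) and VCAM1, an adhesion protein induced by cytokines, by 2.05 (SE 0.40, adjusted p = 0.00795). In the FP versus the LP, 1 rose and 5 fell in each segment, or 15.8% against 7.82% of all probesets in the ampulla and 8.44% in the isthmus. VCAM1 fell by 3.25 in the ampulla (SE 0.40, adjusted p = 0.000599) and 1.30 in the isthmus (SE 0.40, adjusted p = 0.0484), with FP means of 5.78 and 5.68 at the lower quartile. CAV1, caveolin of endothelium and many other cells, fell by 1.86 in the ampulla (SE 0.43, adjusted p = 0.0144) and by 2.11 in the isthmus (SE 0.43, adjusted p = 0.00755). ESM1, endocan, rose in the FP isthmus by 3.43 (SE 0.86, adjusted p = 0.0208).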

How the data were processed

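Total RNA of 12 preparations, from 6 heifers, was hybridized by the authors to 1 array each. The log2 values were deposited by the authors after GCOS (1.2) and Partek (6.4, both versions from the submitters' processing notes), by RMA background correction, quantile normalization and median polish for each probeset, as the methods state. They were used as deposited for 26773 probesets. Those with several symbols (688) or none (7628) were not named. The software was limma 3.58.1 in R 4.3.3, with matplotlib 3.10.9 in Python 3.11.15 for plots. The linear model held 4 group means over 12 arrays (8 residual degrees of freedom), and p-values were adjusted by Benjamini-Hochberg over all probesets. A difference of the phase effects was called by its adjusted p alone. The study's F-test with LSD contrasts was an alternative. As run here, its F-test over the 4 groups was adjusted over all probesets, and the contrast that followed was not. The procedure was also run on simulated data, the outcome of which is not given here. The members and lists were chosen with earlier results of these data known, so no list was tested as a set, and list counts and medians are descriptions. Members called in any comparison are given on every array, as are the 2 with the highest mean signal in each list and CLDN2, and for wider lists up to 3 called genes per comparison. Replicates are separate heifers, and precision is limited by their number. The labels pair the segments of a heifer by animal number. After removal of group means, the segments of the same heifer correlated at 0.26, 0.22 and 0.37 in the LP. In the FP these correlations were -0.05, -0.17 and -0.10, and different numbers reached 0.24. The per-heifer values of the FP, and its calls with heifer as a block, thus rest on the labelled numbers. No promoter sequences were used here.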

Additional observations from a re-analysis of the deposited data

How the results depend on the processing

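The isthmus versus ampulla in the LP gave 6 members called, and 3 when the 2 groups compared were fitted alone. In the FP it gave 4, and 1 without the FP isthmus array of heifer 1, also when the LP isthmus array of heifer 1 was left out with it. These array exclusions were chosen after seeing the data. For FP versus LP in the ampulla, 1 member was called, against 3 by the F-test with LSD contrasts, 3 with probesets under the lower quartile left out, 2 with an intensity trend and robust settings, 2 with epithelial centring (1 higher and 1 lower), 2 with adjustment over probesets of a single symbol, 2 without the LP isthmus array of heifer 1, 2 without both isthmus arrays of heifers numbered 1, and 0 at a fold of at least 2. In the isthmus, 4 were called, and no alternative moved the count past 1.5 times. The interaction gave 0, against 3 by the F-test with LSD contrasts (contrast not adjusted) and 1 (SPARC) without the LP isthmus array of heifer 1. With each heifer left out in turn, the counts ran from 3 to 5 (LP segments), 1 to 6 (FP segments), 1 to 4 (ampulla phases), 3 to 6 (isthmus phases) and 0 to 1 (interaction).

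With heifer as a fixed replicate block, 4 members were called between segments in the LP, 4 in the FP and 0 for the interaction. As a random replicate block, heifer gave 6 and 6 between segments and 1 and 4 between phases, with 0 interactions. Beyond those named with their genes (LUM and SPARC in the LP, MYH11 and EMCN in the FP), the block changed no call of a member.

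The mean difference of the list stood at 1.09 for the fibroblast members in the FP segments against a median of 0.62, and at -0.18 for the endothelial members in the LP segments against a median of 0.05, which turned its sign. Motifs in promoters were not run, as no sequences were used here. With 3 heifers a group, differences of the most variable genes (LUM, POSTN, DCN) could be missed even when large. LUM at 15.9-fold in the FP segments was not called by limma (adjusted p = 0.083). Members under the lower quartile have uncertain sizes.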
